A study of Mus musculus with 6 samples.

Results

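The low-density lipoprotein (LDL) receptor proteins are single-pass membrane receptors that bind extracellular ligands through cysteine-rich repeats and carry them into the cell in clathrin-coated pits. Lrp2 encodes megalin, the very large scavenger receptor best known from the kidney proximal tubule and the visceral yolk sac, where it works with cubilin and the adaptor Dab2. Its relatives Lrp1, Vldlr and Lrp8 take up protease, lipoprotein and reelin ligands, Lrp5 and Lrp6 are co-receptors for Wnt, Lrp4 is the receptor for agrin, and Sorl1 sorts cargo inside the cell. A set of 10 genes was followed here (Lrp1, Lrp2, Lrp4, Lrp5, Lrp6, Lrp8, Lrp10, Lrp12, Vldlr and Sorl1) among 49315 genes in the count table. They were found by matching Ensembl gene IDs to these symbols in the GENCODE M21 annotation of the mouse genome GRCm38, and all 10 were present and passed the filter on low counts. The set was selected on the KO and WT counts of these same libraries, with Lrp2 as its leading gene.

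The libraries came from TKO, a mouse ovarian cancer cell line whose name stands for triple knockout. The 3 knockout (KO) libraries were of TKO cells in which MNRR1, the mitochondrial and nuclear protein encoded by Chchd2, had been knocked out, and the description of each names the same clone, so the KO group is 1 clone. The 3 wild-type (WT) libraries were of TKO cells with MNRR1 intact. WT therefore refers to MNRR1 alone, since both groups carry the triple knockout of the line, whose genes the labels do not name. The labels do not say that replicates came from different cultures, and every p-value therefore rests on sample-to-sample spread that may be purely technical.

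Total counts per library ran from 33226463 to 40983999. Chchd2, the targeted gene, had 581 to 717 counts in KO and 11824 to 13506 counts in WT libraries, so genotype labels and target went together. Levels are given as CPM, counts scaled by library size with TMM (trimmed mean of M-values) factors, and a gene was called at an adjusted p under 0.05. Wt1 averaged 677 CPM in KO and 719 CPM in WT. Of the keratin and mesothelial genes, Krt8 averaged 283 (KO) and 480 CPM (WT), Msln 108 and 281 CPM, and Upk3b 1520 and 2213 CPM. Krt19 averaged 481 (KO) and 354 CPM (WT), and Muc16 414 and 301 CPM. On the same list Krt18 averaged 275 (KO) and 402 CPM (WT), Krt7 81.3 and 299 CPM, and Epcam 2.43 and 2.28 CPM. Of the 11 genes on that marker list 2 were called higher and 5 lower in KO, where 27.8% of all tested genes were called higher and 27.8% lower. The Mullerian factor Pax8 had 0 to 2 counts in KO and 4 to 19 in WT libraries, and the epithelial cadherin gene Cdh1 was at 0.475 (KO) and 0.581 CPM (WT). Of the 8 granulosa and stroma markers, Fshr and Cyp19a1 had no count in any library, and 2 others were called higher. The leukocyte markers summed to 1.84 to 2.501 CPM in KO and 2.39 to 8.15 CPM in WT libraries, and the endothelial markers to 2.73 to 3.79 and 5.74 to 6.26 CPM. Of the leukocyte genes, Lyz2 was at 1.74, 4.31 and 0.252 CPM in WT replicates 1 to 3. The endothelial genes went both ways, with Kdr at 1.13 (KO) and 5.35 CPM (WT) and Tek at 1.68 and 0.287 CPM.

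Lrp2 was the member that differed most between genotypes. The gene lies on the minus strand at chr2:69424340-69586065 (GRCm38), and its longest coding transcript has 79 exons. It had 59, 56 and 64 counts in KO replicates 1 to 3 and 2185, 2090 and 2392 counts in WT replicates 1 to 3. The 3 KO libraries were all low and close together, and no KO value came near a WT value. Its level was 1.57 ± 0.171 CPM in KO and 61.5 ± 1.14 CPM in WT (SD, n = 3 each), which makes KO 2.56% of WT, a 39.1-fold difference. The fitted log2 change of KO over WT was -5.29 (SE 0.09). Of the 16033 genes tested, 46 had a fitted fall at least as large, Lrp2 included. Since this difference placed Lrp2 at the head of the set, its values and those of the other members are a description and carry no p-values. In RNA from whole cultures, fewer cells that hold a transcript and less of it per cell cannot be told apart.

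Megalin is known to work in a complex with cubilin, a peripheral protein that binds vitamin B12 with intrinsic factor, with amnionless, which anchors cubilin in the membrane, and with the clathrin adaptor Dab2. Cubn fell from 12.2, 13.3 and 12.7 CPM in WT replicates 1 to 3 to 2.46, 4.57 and 1.75 CPM in KO replicates 1 to 3. The fitted log2 change was -2.11 (SE 0.28; adjusted p = 2.13e-04 by the quasi-likelihood test of edgeR, with Benjamini-Hochberg (BH) adjustment over all 16033 genes). KO replicate 2 held the highest KO value, still below every WT value.

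Dab2 fell as well, from 39.7, 39.0 and 40.6 CPM in WT to 7.79, 6.95 and 9.59 CPM in KO libraries, a log2 change of -2.29 (SE 0.11; adjusted p = 7.50e-08, edgeR). Amn was low in both genotypes, with 22 to 26 counts in KO and 13 to 25 in WT libraries, and did not pass the test (adjusted p = 0.263, edgeR). In this line the transcripts of megalin, cubilin and Dab2 were therefore all lower in the KO clone, while that of amnionless was scarce in both genotypes.

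Of the 11 genes on the list of megalin partners, 3 rose and 3 fell, where 55.7% of all tested genes were called (list median 0.09 on the log2 scale). Fcgrt, the neonatal Fc receptor that recycles albumin and immunoglobulin G, rose from 1.66, 1.39 and 1.46 CPM in WT to 14.5, 7.69 and 14.0 CPM in KO libraries, a log2 change of 3.00 (SE 0.25; adjusted p = 8.86e-06, edgeR). Myo6, a motor that moves endocytic vesicles away from the plasma membrane, rose by 0.90 on the log2 scale (SE 0.08; adjusted p = 9.60e-06, edgeR). Without KO replicate 2 this list had 4 genes called higher and 4 lower, and without WT replicate 3 it had 2 and 3.

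Markers of the tissues where megalin is best known were examined alongside. Of the 9 proximal tubule markers, the transporter genes Slc34a1, Slc5a2, Slc22a6 and Slc22a8 and the tubular gene Umod had 0 to 4 counts in any library. The list summed to 3.92 to 7.96 CPM in KO and 37.7 to 39.9 CPM in WT libraries. Most of that sum was Gatm, chosen after its values were seen, a creatine synthesis gene at 1.49 (KO) and 24.6 CPM (WT), together with Cubn. Of the 4 tested genes on the list 0 were called higher and 2, Cubn and Gatm, lower. Among all tested genes 27.8% were called higher and 27.8% lower.

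The 8 visceral yolk sac markers summed to 21.2 to 26.5 CPM in KO and 36.4 to 59.4 CPM in WT libraries. On this list 0 genes were called higher and 5 lower, where 27.8% of all tested genes were called higher and 27.8% lower. The list shares Cubn and Amn with the partners. Of its 5 genes for plasma proteins, Apoa1, Apob and Ttr were highest in WT replicate 3. Afp was lowest there among the WT libraries (0.887, 1.59 and 0.756 CPM in WT replicates 1 to 3), and Rbp4 was highest in KO replicate 3 (4.80 CPM, against 4.18 CPM in WT replicate 3). Albumin (Alb, chosen after its values were seen) was at 71.2 to 77.8 CPM in KO and 86.2, 120 and 196 CPM in WT replicates 1 to 3. Hnf4a, on both marker lists, had 23, 25 and 75 counts in WT replicates 1 to 3 and 17 to 25 counts in KO libraries. The part of these cell type markers in the lower Lrp2, Cubn and Dab2 was not tested.

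**Figure D1:**
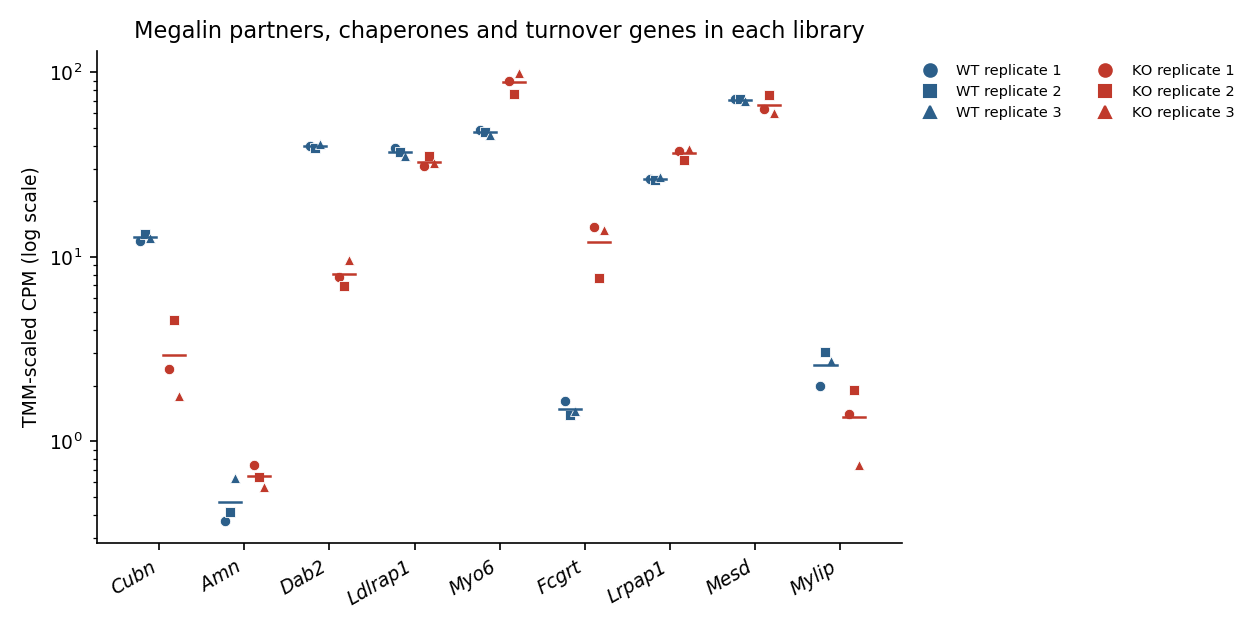
Level of megalin partner, chaperone and turnover genes in each library, as TMM-scaled CPM on a log scale (blue, WT; red, KO; marker shape, replicate number; bars, group means). Cubn and Dab2 are lower and Fcgrt, Myo6 and Lrpap1 higher in every KO library, while the Amn and Mesd values of the genotypes overlap.

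Sequence upstream of the genes is shown for the 3 genes of the megalin complex that were lower in KO and for Vldlr and Lrp1, the members with the greatest rise, to set their promoters side by side. RefSeq windows on GRCm38.p6 were at hand for 6 of the 10 members, and each covers 250 bases before the annotated start. Dab2 and Vldlr had 2 windows each, of which only the window nearest the start of the gene in GENCODE M21 was examined. Capitals mark matches, on either strand, to GGGCGG (the GC box bound by Sp factors), TGGGAA (the core of the site of RBPJ, a reported partner of MNRR1), TGANTCA (the AP-1 site) or CACGTG (the E-box), and the windows end before the first exon base in GENCODE M21.
Lrp2, chr2:69586066-69586279, minus strand: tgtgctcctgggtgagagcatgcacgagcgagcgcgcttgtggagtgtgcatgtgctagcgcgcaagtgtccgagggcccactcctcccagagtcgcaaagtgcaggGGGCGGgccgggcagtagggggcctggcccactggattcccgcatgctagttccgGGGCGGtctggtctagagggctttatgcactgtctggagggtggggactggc
Cubn, chr2:13491877-13492126, minus strand: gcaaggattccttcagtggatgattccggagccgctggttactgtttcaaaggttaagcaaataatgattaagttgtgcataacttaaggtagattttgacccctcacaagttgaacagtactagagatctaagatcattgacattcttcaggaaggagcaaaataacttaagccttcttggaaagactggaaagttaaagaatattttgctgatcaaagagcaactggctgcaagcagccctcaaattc
Dab2, chr15:6299539-6299787, plus strand: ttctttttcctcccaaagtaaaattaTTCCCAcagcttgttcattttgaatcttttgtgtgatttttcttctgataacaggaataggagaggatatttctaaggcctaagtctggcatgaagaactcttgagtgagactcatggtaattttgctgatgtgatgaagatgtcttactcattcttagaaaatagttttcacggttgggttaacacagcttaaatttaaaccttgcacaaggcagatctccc
Lrp1, chr10:127621149-127621398, minus strand: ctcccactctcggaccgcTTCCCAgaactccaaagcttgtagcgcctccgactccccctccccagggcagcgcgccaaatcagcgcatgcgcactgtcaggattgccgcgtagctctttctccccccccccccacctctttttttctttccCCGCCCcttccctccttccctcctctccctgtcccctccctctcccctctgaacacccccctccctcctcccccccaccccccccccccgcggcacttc
Vldlr, chr19:27216234-27216483, plus strand: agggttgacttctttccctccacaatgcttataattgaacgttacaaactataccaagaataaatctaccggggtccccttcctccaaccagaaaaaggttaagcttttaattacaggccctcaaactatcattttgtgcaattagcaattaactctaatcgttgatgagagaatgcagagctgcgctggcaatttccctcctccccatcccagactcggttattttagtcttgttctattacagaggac

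Over the full 250 bases, the Lrp2 window had 2 matches to GGGCGG and a GC content of 66.4%, with 18 CpG dinucleotides, where the median over all 32851 windows was 52.4% and 6. The Lrp1 window had 1 match to GGGCGG and 1 to TGGGAA at 67.2% GC. The Cubn and Dab2 windows were at 39.6% and 36.8% GC with 2 CpG dinucleotides each, and Dab2 had 1 match to TGGGAA. The examined window of Vldlr, at 41.6% GC, had 0 matches to any of the 4 motifs. Over all windows GGGCGG was found in 32.7%, TGGGAA in 21.6%, TGANTCA in 6.75% and CACGTG in 6.02%, and none of the 4 was in all 3 of the windows of Lrp2, Cubn and Dab2. A match is a run of letters and not a measured binding site.

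The nearest tested genes on either side of Lrp2 were examined next. Dhrs9, a dehydrogenase gene that ends 19807 bases away, was at 12.2 ± 2.54 (KO) and 9.25 ± 0.600 CPM (WT) (SD, n = 3 each), called higher (adjusted p = 0.0309, edgeR), a call lost without KO replicate 3 or any single WT library (range over all settings 0.00144 to 1.00). Bbs5, a gene of the ciliary BBSome that starts 61106 bases away, was at 7.75 ± 1.55 and 7.53 ± 0.529 CPM (adjusted p = 0.830, edgeR). Neither neighbour was called lower in KO.

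The 5 genes whose profile over the 6 libraries was most like that of Lrp2 were Sfrp1, Thy1, Morc1, Mmp14 and Thbs4, by the root-mean-square difference of log2 CPM (with 0.05 CPM added) after centring each gene on its mean. The difference ran from 0.125 for Sfrp1, a secreted Wnt antagonist, to 0.269 for Thbs4. All 5 were lower in KO, which the choice by likeness to Lrp2 fixed in advance. Thy1, Morc1 and Thbs4 had 0 counts in the KO libraries, while Sfrp1 had 1, 0 and 1. The distance of these 4 genes from Lrp2, and so the first place of Sfrp1, rests on the added value. Mmp14, a membrane protease gene, had 4, 7 and 6 counts in KO and 228, 250 and 272 counts in WT libraries.

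Lrp1 differed the opposite way. It encodes the broadly expressed relative of megalin that clears proteases bound to their inhibitors, apolipoprotein E particles and matrix proteins, and it lies at chr10:127538161-127621148. Its level was 245, 191 and 248 CPM in KO replicates 1 to 3 and 83.7, 86.0 and 95.2 CPM in WT replicates 1 to 3. Every KO library was above every WT library, with KO replicate 2 the lowest of the KO libraries. The KO mean was 2.58 times the WT mean, and the log2 change was 1.37 (SE 0.10).

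Because Lrp1 and Lrp2 changed in opposite directions, their ratio within a library moved strongly. Per length, taken as RPKM (CPM divided by the union of annotated exons in kilobases), Lrp1 was at 1.26, 1.31 and 1.49 times the Lrp2 level in WT replicates 1 to 3. In KO replicates 1 to 3 the same ratio of levels was 137, 131 and 141. The pair of scavenger receptors thus stood at similar levels in WT cells, whereas in the KO clone nearly all of their summed level was Lrp1.

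The reelin receptors Vldlr and Lrp8 also went in opposite directions. Vldlr, the very-low-density lipoprotein receptor (chr19:27216484-27254231), was at 15.3, 16.7 and 17.04 CPM in KO replicates 1 to 3 and at 5.01, 5.25 and 5.59 CPM in WT replicates 1 to 3. The groups were apart, the KO mean was 3.10 times the WT mean, and the log2 change was 1.63 (SE 0.10). Lrp8, the apolipoprotein E receptor 2 (chr4:107802261-107876840), was at 30.8, 36.4 and 26.0 CPM in KO and at 54.0, 57.4 and 51.4 CPM in WT libraries, with a log2 change of -0.81 (SE 0.11). All 3 KO values were below the WT values, and KO replicate 2 was the nearest to them.

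Per length, Lrp8 was 8.81 to 10.5 times as high as Vldlr in WT libraries and 1.46 to 2.08 times as high in KO libraries. Lrp8 thus remained above Vldlr in all 6 libraries. A gene antisense to Lrp8, Lrp8os2, chosen after its values were seen, was at 36.5 ± 3.08 (KO) and 23.0 ± 1.58 CPM (WT) (SD, n = 3 each). Its annotated exons do not overlap those of Lrp8, but the sources used here do not state whether counting used strand, so reads from either strand there cannot be told apart. Annotated antisense genes also overlap exons of Lrp10 and Sorl1.

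**Figure D2:**
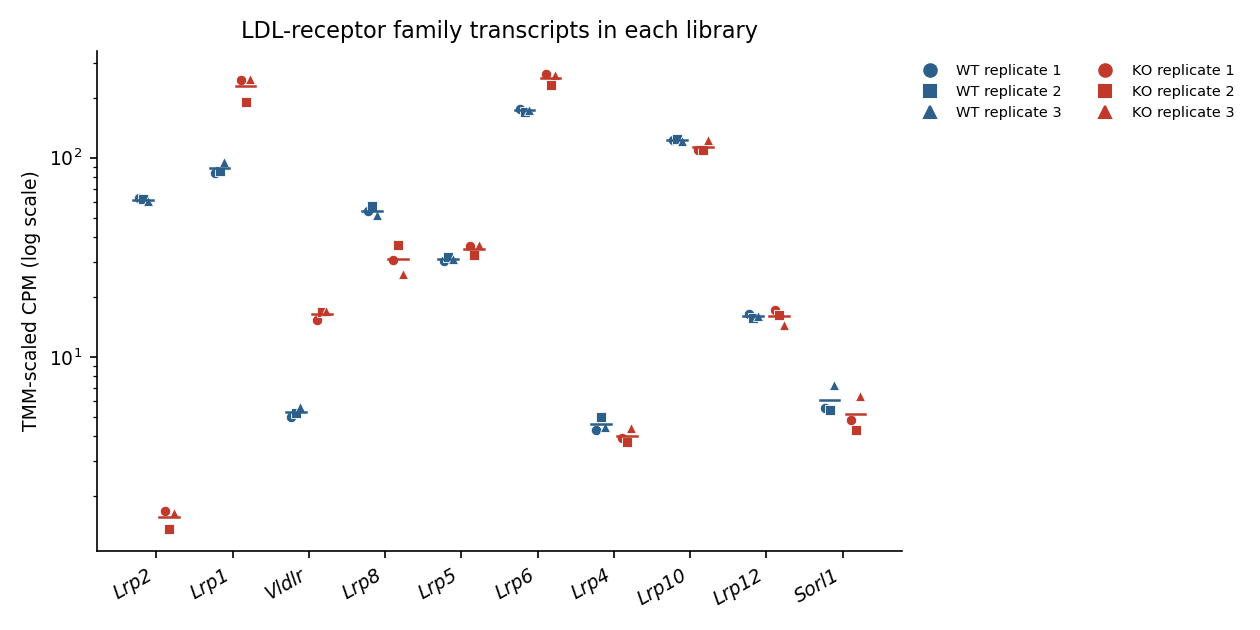
Level of each of the 10 LDL-receptor family genes in each library, as TMM-scaled CPM on a log scale (blue, WT; red, KO; marker shape, replicate number; bars, group means). Lrp2 stands at 1.57 CPM in KO against 61.5 CPM in WT, Lrp1, Lrp6 and Vldlr are higher in every KO library, and Lrp8 is lower in every KO library.

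The Wnt co-receptor genes differed less. Lrp6 (chr6:134446476-134566965) was at 265, 231 and 260 CPM in KO replicates 1 to 3 and at 175, 170 and 173 CPM in WT replicates 1 to 3, a log2 change of 0.54 (SE 0.06). Lrp5 (chr19:3584828-3686564) was at 35.8, 32.6 and 36.4 CPM in KO and at 30.3, 31.8 and 31.0 CPM in WT libraries (log2 change 0.17, SE 0.07). The groups were apart for both genes, but for Lrp5 by less than 1 SD of the KO values, and Lrp5 dropped below the threshold in 12 of 16 alternative settings. Per length, Lrp6 was 3.80 to 4.10 times as high as Lrp5 in WT and 5.03 to 5.26 times as high in KO libraries.

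The other 4 members had KO values within or overlapping the WT values. Lrp10, an unusual member that travels between the Golgi and endosomes, was at 109, 109 and 123 CPM in KO and at 122, 125 and 121 CPM in WT libraries. Its log2 change was -0.11 (SE 0.06), and it became 0.01 with scaling by library totals. Lrp12, another member with a short ectodomain, was at 15.95 ± 1.44 (KO) and 16.1 ± 0.402 CPM (WT) (SD, n = 3 each), and the sign of its log2 change of -0.01 depended on the scaling. Lrp4 was low in both genotypes, at 4.03 ± 0.338 and 4.58 ± 0.364 CPM, with a log2 change of -0.18 (SE 0.14).

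Sorl1, which joins LDL-receptor repeats to a VPS10 sorting domain, was at 4.81, 4.27 and 6.34 CPM in KO replicates 1 to 3 and at 5.52, 5.402 and 7.23 CPM in WT replicates 1 to 3. Replicate 3 was the highest of each genotype, and the groups overlapped. The log2 change was -0.24 (SE 0.18). It moved to -0.42 without KO replicate 3, the 1 setting in which Sorl1 was called, to -0.12 without KO replicate 2 or with library totals, and to -0.09 without WT replicate 3.

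Of the 10 members, 4 were called higher and 2 lower in KO at an adjusted p under 0.05 by the same test of edgeR with BH adjustment, which is 60.0% of the set, where 55.7% of all tested genes were called, 27.8% higher and 27.8% lower. With scaling by library totals 5771 genes were called higher and 3294 lower, in place of 4463 and 4462. The groups were fully apart for 6 members, as for 64.0% of all tested genes, and 3 members had a fitted change of at least 2-fold, as did 14.6% of all genes. The median log2 change of the members was -0.06, against 0.01 for all genes, and their median absolute log2 change was 0.39, against 0.35. Since the set was put together with this contrast known, the counts describe it and carry no further reading.

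Compared per length of the union of exons, Lrp10 was the highest member in both genotypes. With the length of the longest transcript Lrp10 and Lrp6 were level in KO, with means of 26.91 and 26.88 RPKM. In WT libraries the order of mean RPKM was Lrp10 (27.5 ± 0.418), Lrp6 (12.6 ± 0.169), Lrp8 (5.16 ± 0.285), Lrp1 (4.98 ± 0.343), Lrp2 (3.68 ± 0.0680), Lrp12 (3.50 ± 0.0876), Lrp5 (3.19 ± 0.0801), Sorl1 (0.534 ± 0.0903), Vldlr (0.525 ± 0.0292) and Lrp4 (0.436 ± 0.0347) (SD, n = 3). Lrp8 and Lrp1 overlapped, as did Sorl1 and Vldlr, and Lrp2 and Lrp12 were apart only by the gap between 3.61 and 3.59 RPKM. Megalin was therefore in the middle of the family in WT cells.

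In KO libraries the order of RPKM was Lrp10 (25.5 ± 1.85), Lrp6 (18.4 ± 1.35), Lrp1 (12.9 ± 1.83), Lrp5 (3.59 ± 0.207), Lrp12 (3.48 ± 0.313), Lrp8 (2.95 ± 0.492), Vldlr (1.63 ± 0.0913), Sorl1 (0.454 ± 0.0948), Lrp4 (0.384 ± 0.0322) and Lrp2 (0.0941 ± 0.0102) (SD, n = 3). Neighbours from Lrp5 to Lrp8 overlapped, as did Sorl1 and Lrp4. Lrp2 had moved from the fifth place to the last, and Lrp1 from the fourth to the third.

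**Figure D3:**
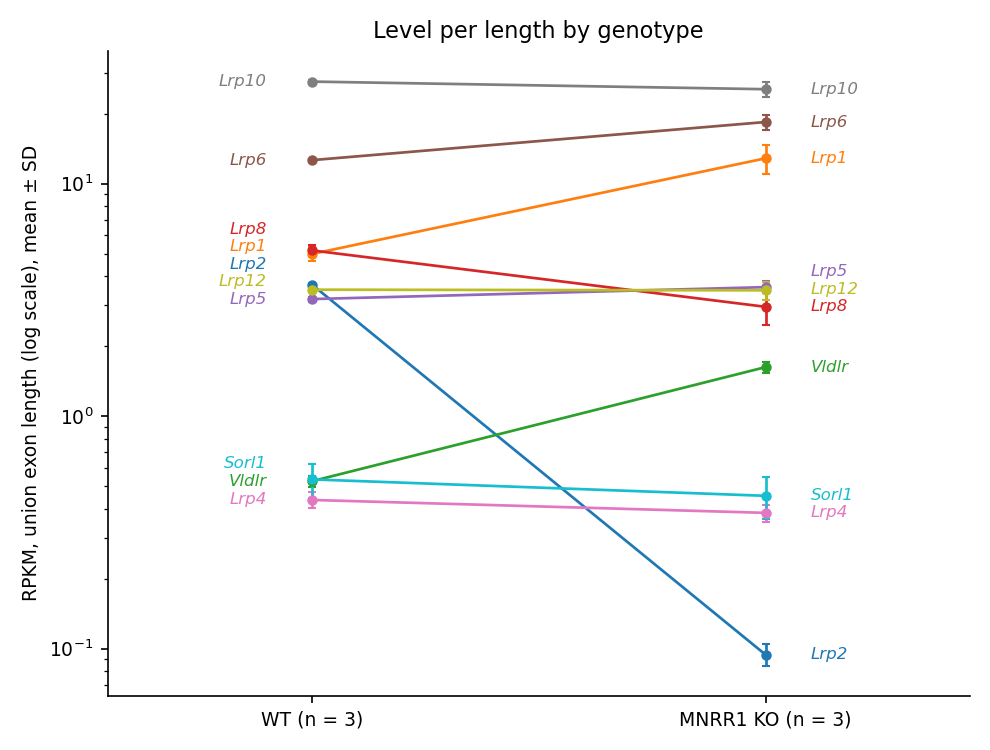
Mean level per length of each member in WT and KO libraries, as RPKM on a log scale with SD error bars (n = 3 each) and a line joining the genotypes. Lrp2 drops from 3.68 to 0.0941 RPKM and crosses all lower members, while Lrp1 and Vldlr climb.

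The summed RPKM of the 10 genes was 69.3 ± 4.04 in KO and 62.1 ± 0.385 in WT (SD, n = 3 each). Lrp2 made up 5.82% to 6.05% of this sum in WT libraries and 0.127% to 0.144% in KO libraries. Lrp1 made up 7.64% to 8.67% in WT and 16.6% to 19.7% in KO, and Lrp10 43.8% to 44.7% in WT and 34.7% to 37.97% in KO. The summed level was thus no lower in KO, with a larger part from Lrp1 and Lrp6.

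**Figure D4:**
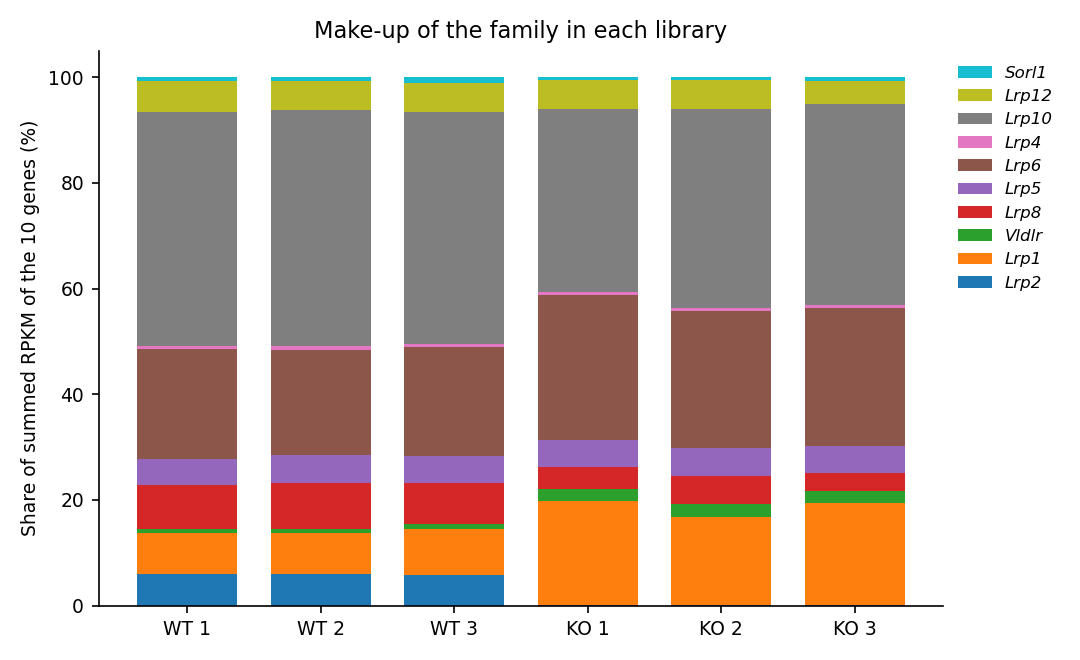
Share of the summed RPKM of the 10 genes that each gene took in each library, stacked to 100%. The Lrp2 segment, 5.82% to 6.05% in WT libraries, is too thin to see in KO libraries, and the Lrp1 segment widens from at most 8.67% to at least 16.6%.

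Genes that act with or on these receptors were taken from 11 lists written from textbook roles. Of the 140 genes, 111 passed the filter, and 33 of these rose and 51 fell (list median -0.12 on the log2 scale, where all genes had 0.01). Over all tested genes 27.8% were called higher and 27.8% lower, which is the background for the count of each list. With scaling by library totals the split of the lists was 39 higher and 34 lower. Under that scaling 5771 of all tested genes were called higher and 3294 lower, and the median of all genes moved to 0.13. The counts of the lists are thus to be read beside those of all genes under the same scaling.

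Among the genes that fold and turn over LDL-receptor proteins, 2 of 10 rose and 7 fell (list median -0.33 on the log2 scale), where 55.7% of all tested genes were called in either direction. Lrpap1 encodes RAP, the chaperone that keeps the receptors from binding ligands on their way to the surface, and it rose from 26.4, 25.9 and 27.1 CPM in WT to 37.4, 33.6 and 38.5 CPM in KO libraries (log2 change 0.46, SE 0.07; adjusted p = 2.27e-04, edgeR). Mesd, the chaperone of Lrp5 and Lrp6, was at 66.3 ± 7.97 (KO) and 71.1 ± 1.08 CPM (WT) (SD, n = 3 each) and did not pass the test (adjusted p = 0.297, edgeR). Without KO replicate 2 the adjusted p of Mesd was 0.00238, the lowest in a range up to 1.00 over the settings. The 5 general chaperone and oxidoreductase genes of the endoplasmic reticulum on the list all fell, led by Hspa5 at -0.97 and Hsp90b1 at -0.50 on the log2 scale.

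Mylip, a ubiquitin ligase known to act on Vldlr and Lrp8, was at a log2 change of -0.94 (adjusted p = 0.0203, edgeR), a call that was lost without KO replicate 1, WT replicate 2 or WT replicate 3 (range over all settings 1.97e-04 to 0.240).

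Of 8 other superfamily genes, 4 passed the filter, with 1 higher and 1 lower. Lrp11 fell by 0.72 on the log2 scale (SE 0.13; adjusted p = 7.24e-04, edgeR). Ldlrad4 rose by 0.34 (adjusted p = 0.0236, edgeR), a call that was lost without KO replicate 1, KO replicate 3, WT replicate 2 or WT replicate 3 (range over all settings 0.00338 to 1.00). Lrp1b, a large relative of Lrp1, had 1 to 5 counts in KO and 0 to 1 in WT libraries, and Lrp3 had 1 count in all.

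Transcripts of megalin ligands mostly fell, 10 of 14 tested genes against 1 that rose (list median -0.68 on the log2 scale). Among all tested genes 27.8% were called lower and 27.8% higher. The chaperone-like secreted protein gene Clu was at -1.68, the galectin gene Lgals3 at -1.45 and the lipocalin gene Lcn2 at -2.08 on the log2 scale, all past the threshold. The single gene that rose was Plat, tissue plasminogen activator, by 0.75 (SE 0.07; adjusted p = 7.89e-06, edgeR).

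The list also holds the plasma protein genes Gc, Ttr and Apoh, chosen for mention after their values were seen, whose levels were highest in WT replicate 3, as was that of Alb. Rbp4, another plasma protein gene of the list, was instead highest in KO replicate 3. Without WT replicate 3 the list had 1 gene higher and 7 lower, and Ttr and Apoh lost their calls, at log2 changes of -0.28 and -0.46. With scaling by library totals it also had 1 higher and 7 lower. The part of these transcripts in the lower ligands was not tested.

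Of 12 tested ligands of Lrp1, 2 rose and 6 fell (list median -0.43 on the log2 scale), and 5 genes stand on both ligand lists. The matricellular gene Ccn2 fell by 1.31 and Plau, urokinase, fell by 1.08 on the log2 scale, and Plat rose. Thbs1, named after its values were seen, was at 333 (KO) and 220 CPM (WT) with overlapping values (adjusted p = 0.0774, edgeR). Psap, the saposin precursor, was the other gene that rose.

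The reelin branch had almost no reads of its ligand and adaptor. Reln had 3 to 10 counts in KO and 1 to 4 in WT libraries, and Dab1, the adaptor that docks on Vldlr and Lrp8, had 1 count over all 6. Of the 7 tested genes of the pathway, 2 rose and 4 fell (list median -0.20 on the log2 scale). The kinase gene Fyn rose by 0.54 and the adaptor gene Crkl by 0.25, while the exchange factor gene Rapgef1 was at -0.44 and the kinase gene Yes1 at -0.29, all past the threshold.

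Of 20 tested Wnt receptor and signalling genes that act with Lrp5 and Lrp6, 10 rose and 9 fell (list median 0.04 on the log2 scale). The frizzled receptor genes went both ways, with Fzd4 at 0.73 and Fzd9 at -1.99. Axin2, both a brake on and a widely used target of this pathway, fell from 2.20, 2.33 and 2.87 CPM in WT to 0.429, 0.811 and 0.464 CPM in KO libraries, a log2 change of -2.10 (SE 0.27; adjusted p = 7.75e-05, edgeR). The scaffold gene Dvl2 rose by 0.69. The antagonist genes Dkk1, Dkk2 and Sostdc1 had no count in any library.

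For Lrp4, the ligand gene Agrn fell by 0.39 and the acetylcholine receptor subunit gene Chrnb1 by 0.54 on the log2 scale, both of the 2 tested genes of 9. The kinase partner gene Musk had 0 to 2 counts in KO and 3 to 9 in WT libraries, under the filter. Among the VPS10 receptors and retromer genes around Sorl1, 4 of 11 rose and 2 fell (list median 0.00 on the log2 scale). Sorcs2 rose by 0.53, and the retromer genes Vps29 and Vps26b were at -0.30 and -0.25. Vps26b lost its call with scaling by library totals (adjusted p = 0.0902, edgeR, in a range of 1.42e-04 to 1.00). Bace1, a protease that cuts several of these receptors, rose by 0.39, a call lost without KO replicate 1, WT replicate 1 or WT replicate 2.

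Shedding of the receptors is carried out by surface proteases and gamma-secretase. Of these 12 genes 6 rose and 3 fell (list median 0.14 on the log2 scale). Mmp14, which is known to shed Lrp1, fell by 5.51 (SE 0.22; adjusted p = 2.51e-08, edgeR). Furin, the convertase that cleaves the Lrp1 precursor, rose by 0.69, and the gamma-secretase genes Psen2 and Aph1c rose by 0.62 and 1.42. The call of Aph1c was lost without KO replicate 3 or WT replicate 2, and its counts are uncertain because Aph1b is a near copy.

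Of the 16 clathrin coat genes 4 rose and 8 fell (list median -0.13 on the log2 scale). The light chain gene Cltb fell from 48.7, 51.0 and 44.5 CPM in WT to 18.8, 23.7 and 18.0 CPM in KO libraries (log2 change -1.25, SE 0.10; adjusted p = 4.40e-06, edgeR). Dnm3, a dynamin, was at -2.79, the AP-2 subunit gene Ap2a2 at -0.80 and Epn2 at -0.34, while the heavy chain gene Cltc was at 0.08 and did not pass the test.

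**Figure D5:**
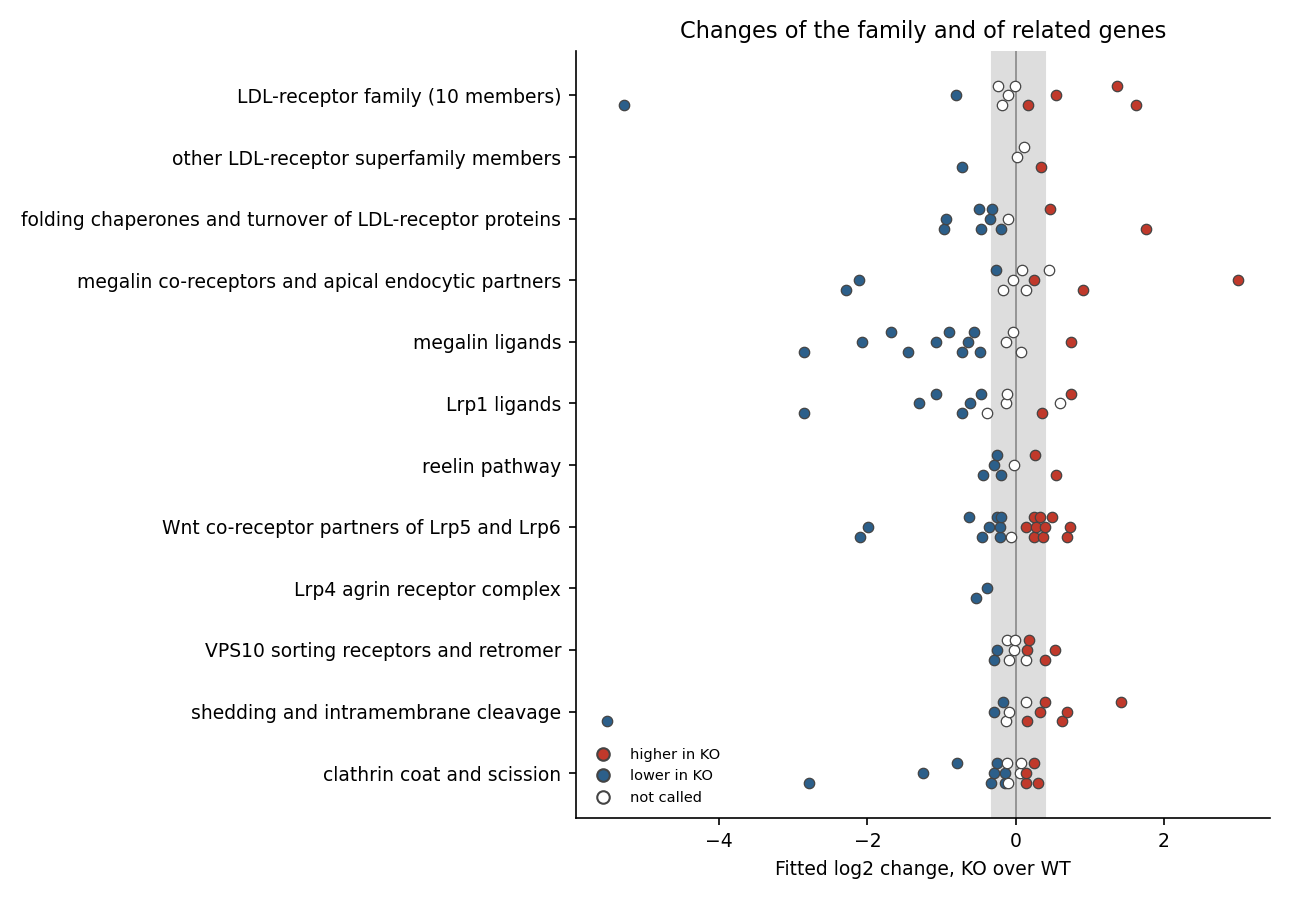
Fitted log2 change of KO over WT for the 10 members and for the tested genes of each related list (red, called higher; blue, called lower; white, not called; grey band, the middle 50% of all tested genes, with a line at their median). Lrp2 at -5.29 lies far to the left of the other members, and the megalin ligands lie mostly to the left of the band.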

How the data were processed

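RNA of 3 KO and 3 WT samples of the TKO line was sequenced, and the deposited values are raw counts of reads per Ensembl gene. STAR 2.5.2b and Subread 1.5.2, with Trimmomatic 0.36, bcl2fastq 2.17 and DESeq2, are named with build GRCm38 (mm10) per the submitters' processing notes. Strand setting, annotation release and treatment of multimapping reads: not given in the sources used here. Symbols and exon lengths came from GENCODE M21, matched by gene ID for 48970 of 49315 IDs.

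Counts were filtered with filterByExpr (minimum count 10), which left 16033 genes, scaled by the TMM (trimmed mean of M-values) method and fitted with edgeR 4.0.16 in R 4.3.3 by a robust quasi-likelihood model with genotype as its only term. P-values were BH-adjusted over all tested genes, and a gene was called at an adjusted p under 0.05. The SE is the fitted log2 change divided by the square root of its F statistic. Where no read was counted, the limit is 3 counts (95% level), which is 0.0732 to 0.0903 CPM by library totals without TMM factors. This limit covers counting error only. The script was tested on simulated counts.

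The members and lists were chosen with earlier results of these data known. Named genes were the 10 members, 8 genes fixed by role, up to 4 called genes of at least 1 CPM from each list, the neighbours of Lrp2 and the 5 genes of most similar profile, and any other gene was named after its values were seen. A few of these are left out and not reported here. Settings tried were DESeq2 1.42.0 size factors, upper-quartile scaling, library totals, no filter, a 1 CPM filter, DESeq2, limma 3.58.1 voom, the replicate block, a threshold of 0.01, a test against 1.5-fold and omission of each library.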

Additional observations from a re-analysis of the deposited data

How the results depend on the processing

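Lrp2, Lrp1, Vldlr and Lrp8 kept their direction in all settings. Lrp2 ran from -5.34 to -5.17, Lrp1 from 1.30 to 1.49 and Vldlr from 1.59 to 1.75 on the log2 scale. Over the 10 members and 16 alternatives, 139 of 160 values kept direction and call, 14 lost the call, 2 gained it and 5 turned sign. A test against a 1.5-fold change left 2277 genes, 3 members (Lrp1, Lrp2 and Vldlr) and 19 genes of the related lists, against 8925, 6 and 84, by the stricter null of that test. Leaving out 1 library gave 7587 to 10002 genes, 5 to 7 members and 69 to 89 related genes. The replicate block gave 8878 genes, 5 members and 82 related genes. Both genotypes carry set labels 1 to 3, and the labels do not say what a set shares. Deviations of same-numbered libraries correlated at -0.0900, 0.0763 and 0.0853, and those of other pairs at -0.156 to 0.128, so the data do not settle whether the sets are paired, and the block was not used for the report. Lrp5 lost its call under the block.

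Signs turned for genes near no change. With library totals Lrp10 was at 0.013, Lrp12 at 0.11 and Mesd at 0.018, and with upper quartiles Lrp12 was at 0.041. The median of all genes was at 0.127 with library totals and 0.058 with upper quartiles, against 0.0065 with TMM factors. Leaving out 1 library moved Lrp12 between -0.065 and 0.059 and Bbs5 between -0.11 and 0.18. The cause was not tested. With library totals 5771 genes were higher and 3294 lower, against 4463 and 4462.

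With the longest transcript as length, 7 of 10 members in WT and 5 of 10 in KO held their rank of level, because the lengths differ. The low counts of Amn, Reln and Lrp1b limit what can be read from them.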
